A study of Mus musculus with 12 samples.

Results

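Astrocytes clear potassium, water and glutamate from the space around neurons and pass small molecules to each other through gap junctions. The 10 genes described here, Aqp4, Kcnj10, Gja1, Gjb6, Slc1a2, Slc1a3, Glul, Slc4a4, Aldoc and Aldh1l1, were chosen by symbol from astrocyte channels, connexins, carriers and metabolic enzymes, and each symbol was matched to 1 mouse Ensembl identifier. They are 10 of 35697 gene rows in the table of the 2018 batch and 10 of 55637 in that of the 2022 batch. RNA from the brains of adult male C57BL/6J mice was sequenced in 4 groups of 3 libraries. In 2018, wild-type sham mice, which had the surgery without the blow, were set beside wild-type injured mice. The injured mice were taken at 7 days after traumatic brain injury (TBI) by controlled cortical impact (CCI), a piston strike on the exposed cortex. In 2022, mice with the same injury were set beside injured mice given zileuton, an inhibitor of 5-lipoxygenase, by intraperitoneal injection of 10 mg per kg each day in corn oil. The 2022 controls are labelled only as injured, and the study calls them vehicle-treated. For the zileuton libraries the source labels read 7, 8 and 9 days, and the titles read 7. The study describes the injured tissue as pericontusional, and the labels give only brain.

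Aquaporin-4 (Aqp4) is the water channel of the astrocyte end-foot, the process that wraps blood vessels, and the inward rectifier Kir4.1 (Kcnj10) carries potassium into the same cells. Connexin 43 (Gja1) and connexin 30 (Gjb6) form the gap junctions that couple astrocytes into a network. The carriers GLT-1 (Slc1a2) and GLAST (Slc1a3) take up synaptic glutamate, glutamine synthetase (Glul) turns it into glutamine, and NBCe1 (Slc4a4) moves sodium with bicarbonate. Aldolase C (Aldoc) and the folate enzyme encoded by Aldh1l1 are widely used as astrocyte markers.

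Promoter sequence, the 250 bases before the start of transcription, was available from RefSeq on build GRCm38.p6 for 9 of the 10 genes, as 11 promoters, and Aqp4 was not analysed here. The 4 sequences below are shown because they belong to the largest rises with a promoter (Gja1 and Kcnj10), to the glutamate carrier that was called (Slc1a3) and to the connexin that was not (Gjb6). They are written 5′ to 3′ on the strand of the gene, with motif matches in capitals. The bases that follow each window were found in a GENCODE M21 transcript for Kcnj10 and Gjb6 and not for Gja1 and Slc1a3, whose strand is that of RefSeq alone.
Gja1, chr10:56377050-56377299, plus strand: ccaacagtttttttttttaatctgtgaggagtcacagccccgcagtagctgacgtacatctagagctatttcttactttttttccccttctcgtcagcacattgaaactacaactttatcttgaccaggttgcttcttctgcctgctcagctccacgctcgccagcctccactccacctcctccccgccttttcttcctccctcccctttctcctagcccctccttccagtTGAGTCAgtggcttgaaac
Kcnj10, chr1:172340960-172341209, plus strand: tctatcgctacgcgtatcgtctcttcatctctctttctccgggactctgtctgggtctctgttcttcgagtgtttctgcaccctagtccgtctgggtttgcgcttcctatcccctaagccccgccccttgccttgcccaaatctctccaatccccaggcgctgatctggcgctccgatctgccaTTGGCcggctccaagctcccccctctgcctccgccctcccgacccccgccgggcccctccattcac
Slc1a3, chr15:8710808-8711057, minus strand: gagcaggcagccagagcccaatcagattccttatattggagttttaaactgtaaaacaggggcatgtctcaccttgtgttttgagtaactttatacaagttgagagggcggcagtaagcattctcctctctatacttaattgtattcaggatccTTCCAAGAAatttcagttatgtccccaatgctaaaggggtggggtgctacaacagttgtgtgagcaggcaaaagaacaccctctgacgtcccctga
Gjb6, chr14:57133612-57133861, minus strand: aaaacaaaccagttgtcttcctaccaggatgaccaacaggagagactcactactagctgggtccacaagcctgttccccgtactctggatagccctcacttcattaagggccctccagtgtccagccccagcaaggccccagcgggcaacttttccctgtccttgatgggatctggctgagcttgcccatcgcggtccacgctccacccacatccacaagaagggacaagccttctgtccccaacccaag
The capitals mark an AP-1 motif (TGANTCA) in Gja1, the short NFI motif (TTGGC) in Kcnj10 and a STAT motif (TTCNNNGAA) in Slc1a3, and the Gjb6 window held none of the motifs searched. On both strands, TTGGC was present in 6 of the 11 promoters, against 41.5% of 32851 promoters of the same length. TTCNNNGAA was present in 2 of 11, against 7.02%, and TGANTCA in 1 of 11, against 6.75%. The SOX motifs ACAAAG and ACAATG were in 0 of 11, where 16.5% and 10.7% of all promoters hold them. A match is a stretch of letters and was not tested as a binding site.

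Counts added up to between 42929862 and 48684674 per library in 2018 and to between 27845562 and 35453257 in 2022, so each of the 10 genes rests on at least 1328 counts in every library. As a check of the injury label, Gfap, the intermediate filament of astrocytes, rose from 188 ± 41.6 to 2484 ± 211 CPM (counts scaled to 1000000 per library, SD, n = 3 each), and Cd68, a lysosomal protein of phagocytes, rose from 7.90 ± 1.00 to 97.3 ± 29.1 CPM. Some libraries stood apart in tissue markers. The summed level of 5 choroid plexus markers was 1071, 18.4 and 54.9 CPM in sham replicates 1 to 3 and 1225, 1332 and 1153 CPM after TBI. TBI replicate 2 had the highest sums of ependyma markers (83.8 against 48.3 and 27.6 CPM in the other injured libraries) and of thalamus markers (236 against 132 and 126 CPM). It also had the highest sum of striatum markers (720.4 against 159 and 192 CPM, with 298, 295 and 588 CPM in sham libraries). In sham libraries ependyma sums were between 18.2 and 20.2 CPM and thalamus sums between 92.6 and 118 CPM, below every injured library. Sums of cortex neuron markers were between 606 and 649 CPM in sham libraries and between 324 and 503 CPM after TBI, without overlap. The 2022 libraries also differed, with choroid plexus sums of 10.9, 476 and 1053 CPM in TBI replicates A to C and of 1473, 1278 and 14.8 CPM in zileuton replicates A to C. These sums thus differed among libraries of 1 group as well as between groups, and their part in the results below was not tested beyond leaving libraries out. Cerebellum markers summed to between 12.7 and 23.2 CPM in the 12 libraries, with Gabra6 at 0 counts in each of them. Nearly all of this sum was Car8, with a mean of 13.9 of 14.4 CPM in sham libraries. Car8 is also in the list of bicarbonate and pH handling.

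**Figure D1:**
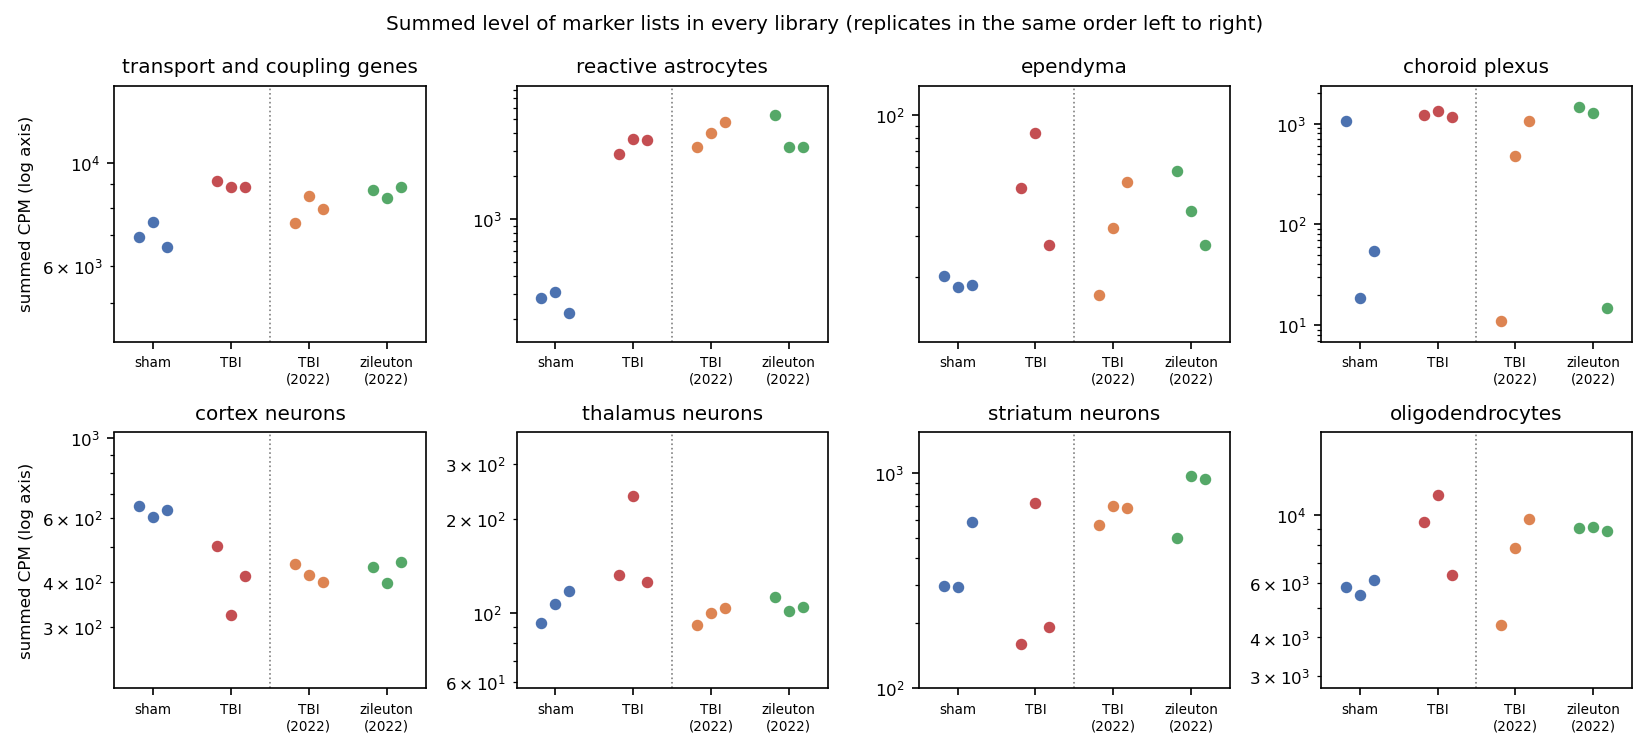
Summed CPM (log axis) of the 10 transport and coupling genes and of 7 lists of marker genes, 1 point per library, with the 2018 groups left and the 2022 groups right of the dotted line. Choroid plexus markers were above 1000 CPM in sham replicate 1 and all 3 injured libraries of 2018 and far lower in the other sham libraries, whereas the sum of the 10 genes lay between 6598 and 7471 CPM in sham and between 8868 and 9167 CPM after TBI.

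After TBI, 7 of the 10 genes rose, 0 fell and 3 did not pass the test. All 10 had a positive log2 fold change, from 0.12 for Aldoc to 1.70 for Aqp4, with a median of 0.44 against 0.02 over all genes tested. Called here means an adjusted p-value under 0.05 in the quasi-likelihood test of edgeR with Benjamini-Hochberg adjustment over 19536 genes, and 28.0% of those genes were called, 16.8% higher and 11.2% lower. Every injured library was above every sham library in 8 of the 10 genes and in 24.6% of all genes tested, and 9 of the 10, against 39.6% of all, had an unadjusted p-value under 0.05. In bulk tissue, more astrocytes and more RNA per astrocyte cannot be told apart. The neuron markers summed to between 11185 and 11599 CPM in sham and to between 7149 and 9708 CPM after TBI, so the injured libraries also held a smaller share of neuronal RNA, and its part in the rises was not tested.

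Aqp4 (ENSMUSG00000024411, chromosome 18) showed the largest change of the 10. It was at 108, 130.5 and 94.3 CPM in the sham libraries and at 336, 405 and 345 CPM in injured mice. Every injured library was more than 200 CPM above every sham library, and replicate 2, the one with the highest ependyma and thalamus marker sums, was the highest. The fold change was 3.26 (95% interval 2.66 to 3.99), a log2 fold change of 1.70 (SE, standard error, 0.128, adjusted p = 3.45e-05). Without TBI replicate 2 the log2 fold change was 1.62, and without sham replicate 1 as well it was 1.59. Both leave-outs kept the call.

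Kcnj10 (ENSMUSG00000044708, chromosome 1) also rose, to nearly 2 times its sham level. Its values were 164, 179 and 184 CPM in sham mice and 316, 357 and 329.7 CPM after TBI, with no overlap. The log2 fold change was 0.93 (SE 0.0797, adjusted p = 6.85e-05), a fold change of 1.91 (95% interval 1.68 to 2.16). The log2 ratio of Kcnj10 to Aqp4 within a library was 0.60, 0.45 and 0.96 in sham mice and -0.09, -0.18 and -0.07 after TBI, so the ratio was 0.582 times its sham level. In a two-sided exact permutation test this difference had p = 0.1, the smallest that 3 libraries against 3 can give, and 0.2 after adjustment over the 6 ratio tests made.

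Of the connexins, Gja1 rose and Gjb6 did not pass the test. Gja1 (ENSMUSG00000050953, chromosome 10) had 189, 206 and 175 CPM in sham mice and 395, 406 and 364 CPM in injured mice. The lowest injured library was well above the highest sham library, with a fold change of 2.04 (95% interval 1.79 to 2.34) and a log2 fold change of 1.03 (SE 0.0850, adjusted p = 5.66e-05). Gjb6 (ENSMUSG00000040055, chromosome 14) had 68.2, 83.6 and 66.0 CPM in sham mice and 93.6, 77.2 and 90.0 CPM after TBI, and the groups overlapped because sham replicate 2 was above TBI replicate 2. Its log2 fold change of 0.26 (SE 0.111) did not pass the test (adjusted p = 0.116). Without sham replicate 2 it was 0.35 with an adjusted p of 0.0469, and over the 18 alternatives tried the adjusted p of Gjb6 ran from 0.0469 to 0.342. The log2 ratio of Gjb6 to Gja1 was -1.47, -1.30 and -1.41 in sham mice and -2.08, -2.39 and -2.01 after TBI, so there was 0.586 times as much Gjb6 RNA per Gja1 RNA as in sham mice (two-sided exact permutation test, p = 0.1, adjusted 0.2).

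Of the glutamate carriers, Slc1a3 rose and Slc1a2 did not pass the test. Slc1a3 (ENSMUSG00000005360, chromosome 15) had 582, 632 and 513 CPM in sham mice and 756, 834 and 874 CPM in injured mice, with no overlap. Its fold change was 1.43 (95% interval 1.22 to 1.67), with a log2 fold change of 0.51 (SE 0.0988, adjusted p = 0.00525). Slc1a2 (ENSMUSG00000005089, chromosome 2) was the most abundant of the 10 in CPM, with 2803, 2885.5 and 2719 CPM in sham mice and 3415, 3236 and 2963 CPM in injured mice. The injured libraries were all higher, by a small margin for TBI replicate 3. Its log2 fold change was 0.19 (SE 0.0846, adjusted p = 0.124). The 95% interval of its fold change, 1.00 to 1.31, overlaps that of Slc1a3, 1.22 to 1.67. When the trend of log2 fold change with transcript length was removed, Slc1a2 reached 0.30 with an adjusted p of 0.0196, in a range of 0.0196 to 0.381 over its alternatives. The log2 ratio of Slc1a2 to Slc1a3 was 2.27, 2.19 and 2.41 in sham mice and 2.18, 1.96 and 1.76 after TBI, without overlap and 0.799 times as high after TBI (two-sided exact permutation test, p = 0.1, adjusted 0.2). Reads of Slc1a2 share 189 exon bases with the antisense gene Gm13872, and the sources used here do not say whether counting used the strand.

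Glul (ENSMUSG00000026473, chromosome 1), which acts on the glutamate that these carriers bring in, rose from 1920.0, 2076 and 1756 CPM to 2564, 2286 and 2593 CPM. The groups did not overlap, and the fold change was 1.29 (95% interval 1.12 to 1.50; log2 fold change 0.37, SE 0.0940, adjusted p = 0.0183). The call of Glul was lost without sham replicate 1 (log2 fold change 0.36, adjusted p = 0.0602) and without sham replicate 3 (0.29, adjusted p = 0.10), in a range of 0.00306 to 0.10 over its alternatives. Glul shares 116 exon bases with Teddm2 on the opposite strand and 93 with Mir8114 on its own strand. Slc4a4 (ENSMUSG00000060961, chromosome 5) had 147, 159 and 151 CPM in sham mice and 169, 206 and 179 CPM in injured mice. Its rise of 1.21-fold (95% interval 1.057 to 1.39; log2 fold change 0.28, SE 0.0864, adjusted p = 0.0427) was the smallest of the calls. It was lost in 12 of 18 alternatives, with adjusted p-values from 0.0143 to 0.251, among them those without sham replicate 1 (0.148), sham replicate 2 (0.0967), sham replicate 3 (0.143), TBI replicate 2 (0.10) and TBI replicate 3 (0.0622).

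Of the metabolic enzymes, Aldh1l1 rose and Aldoc did not pass the test. Aldh1l1 (ENSMUSG00000030088, chromosome 6) had 55.5, 64.7 and 58.3 CPM in sham mice and 74.0, 79.7 and 104 CPM after TBI, where replicate 3 was the highest by a wide margin. Its fold change was 1.44 (95% interval 1.18 to 1.77), with a log2 fold change of 0.53 (SE 0.128, adjusted p = 0.0150). The call was lost without sham replicate 1 (adjusted p = 0.0605) and without sham replicate 3 (0.0559), and adjusted p-values ran from 0.00131 to 0.111 over the alternatives. Aldh1l1 shares 499 exon bases with Gm15756 on the opposite strand and 105 with Gm45901 on its own strand. Aldoc (ENSMUSG00000017390, chromosome 11) had 912, 1056 and 880.3 CPM in sham mice and 1048, 982 and 1061 CPM in injured mice. The groups overlapped, and its log2 fold change of 0.12 (SE 0.0907, adjusted p = 0.377) did not pass the test, with a 95% interval of 0.941 to 1.25 for the fold change.

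**Figure D2:**
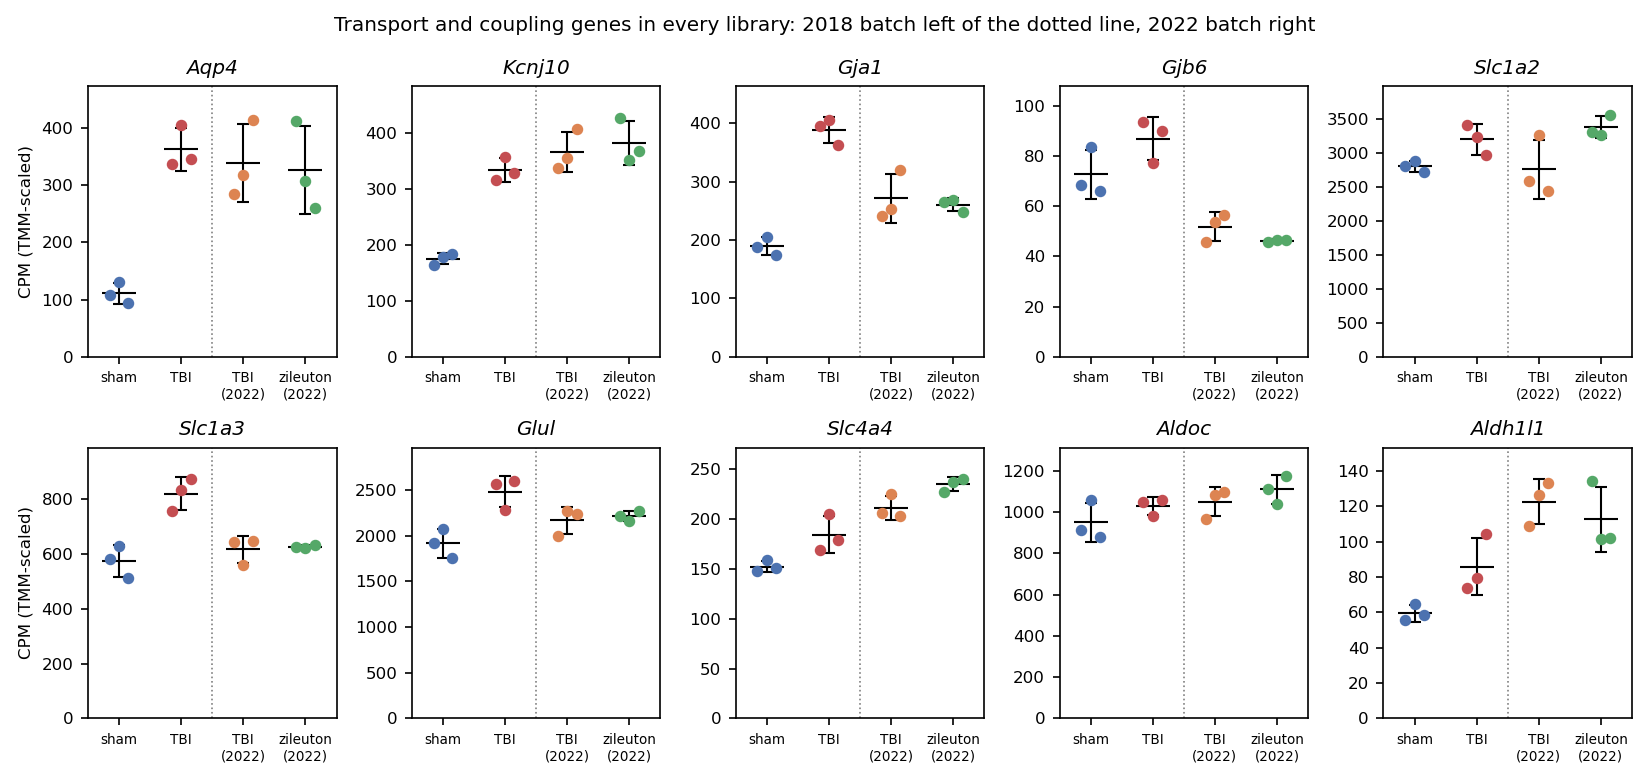
TMM-scaled CPM of each of the 10 genes in every library (points), with the group mean (horizontal line) and SD (bars), for sham, TBI, the 2022 TBI controls and zileuton. The batches were counted apart and their levels are not comparable across the dotted line. Aqp4, Kcnj10 and Gja1 show the widest gaps between sham and TBI, and no gene shows such a gap between the 2022 groups.

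Set against the mean of the 10 genes within each library, a description added after the values were seen and free of library scaling, the genes fell into those above and those below the shared rise. Aqp4 gained 1.12, Gja1 0.44 and Kcnj10 0.34 on the log2 scale relative to that mean, and their groups did not overlap. Slc1a3 and Aldh1l1 each differed by -0.08, with overlapping groups. Glul (-0.22), Slc4a4 (-0.32), Gjb6 (-0.33), Slc1a2 (-0.40) and Aldoc (-0.47) had lower relative levels in every injured library than in any sham library. These values add up to about 0 by construction, so a lower relative level here is not a fall in CPM.

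**Figure D3:**
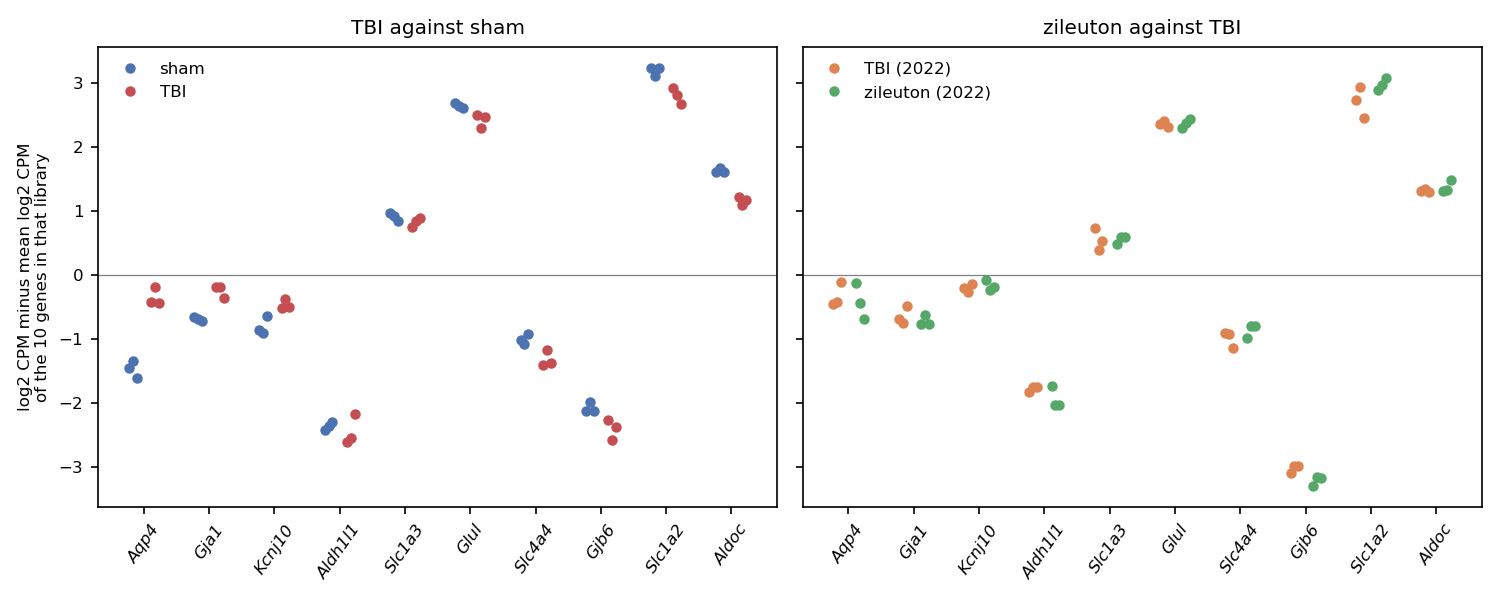
Log2 CPM of each gene minus the mean log2 CPM of the 10 genes in the same library, 1 point per library, for TBI against sham (left) and zileuton against TBI (right). In the left panel Aqp4, Gja1 and Kcnj10 lie higher in the injured libraries and Aldoc, Slc1a2, Gjb6, Slc4a4 and Glul lower, and in the right panel 9 of the 10 genes overlap, Gjb6 being lower with zileuton.

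Per length, the order of the levels in sham mice, as FPKM (counts scaled by gene length and library total), began with Glul (498 ± 41.5, SD, n = 3), Aldoc (286 ± 28.7) and Slc1a2 (209 ± 6.23), followed by Slc1a3 (66.2 ± 6.84). Kcnj10 (31.9 ± 1.98) and Gjb6 (26.7 ± 3.57) did not differ beyond their ranges, nor did Gja1 (18.2 ± 1.46) and Aqp4 (17.5 ± 2.88), nor Slc4a4 (13.2 ± 0.539) and Aldh1l1 (12.9 ± 1.07). After TBI the 4 highest kept their places. Aqp4, at 59.2 ± 7.18 FPKM, then overlapped Kcnj10, at 63.0 ± 4.99 FPKM, and Gja1, at 38.5 ± 2.78 FPKM, lay above Gjb6, at 33.0 ± 2.77 FPKM, without overlap of the libraries, the reverse of their order in sham mice.

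**Figure D4:**
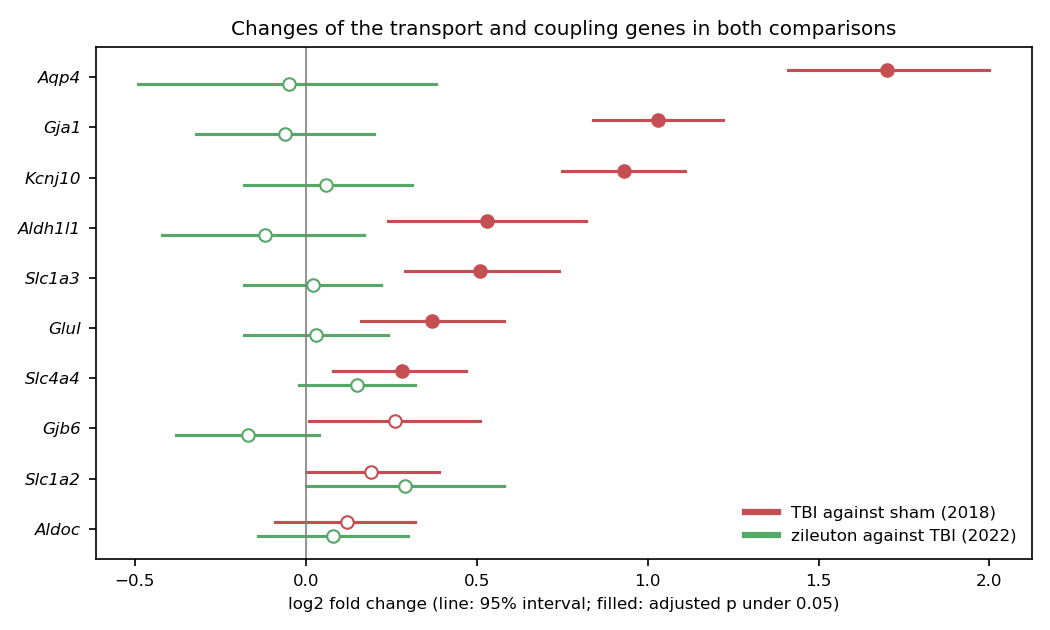
Log2 fold change of each of the 10 genes (points) with its 95% interval (lines) in TBI against sham and in zileuton against TBI, filled where the adjusted p-value was under 0.05. All 10 red points lie above 0, 7 of them filled, and the green points lie between -0.17 and 0.29 with none filled.

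Genes that work with these 10 were described from lists chosen by function, with results of these data already known, and are given as counts beside the share of all genes called higher (16.8%) or lower (11.2%). Of 10 genes that anchor aquaporin-4 at the end-foot, 4 rose and 0 fell, with a median log2 fold change of 0.26. Mlc1, whose membrane protein is lost in a white matter disease with swelling, rose from 182 ± 18.8 to 346 ± 29.9 CPM (SD, n = 3 each), with a log2 fold change of 0.92 (adjusted p = 2.3e-04). Its partner Hepacam (0.45, adjusted p = 0.00803), Sspn of the dystrophin complex (0.52, adjusted p = 0.00326) and dystroglycan (Dag1, 0.23, adjusted p = 0.0424) also rose. Agrin (Agrn), a matrix protein that binds dystroglycan, was at 148 ± 12.98 CPM in sham mice and 147 ± 7.98 CPM in injured mice. Without sham replicate 3, and also with the test of DESeq2, 1 gene of this list was called lower. The equal-variance test on FPKM called 2 higher.

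Of 14 other aquaporins, connexins and pannexins, 13 were tested, 5 rose and 0 fell, with a median of 0.59. The largest rise was that of Gjb1 (connexin 32), a connexin of oligodendrocytes, from 9.50 ± 2.33 to 23.9 ± 6.15 CPM (log2 fold change 1.33, adjusted p = 0.00245). Gjc3, also of oligodendrocytes, had a log2 fold change of 0.59 that missed the threshold (adjusted p = 0.0541), and Panx2 was at -0.07. Aquaporins were also among the 5 genes that rose. Myelin markers moved with the oligodendrocyte connexins. Their sum lay between 5490.2 and 6151 CPM in sham libraries and at 9508, 11585 and 6368 CPM in injured mice. The part of myelin in the values of these connexins was not tested. The count of 5 fell to 3 without sham replicate 1, sham replicate 2 or TBI replicate 3, to 2 without sham replicate 3, to 1 with limma without a filter and to 0 with the equal-variance test on FPKM.

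Of 15 genes of potassium and sodium handling, 3 rose and 4 fell, with a median of -0.04. Fxyd1 (phospholemman), a regulator of the sodium pump, showed the largest rise, from 41.4 ± 2.57 to 134 ± 23.5 CPM (log2 fold change 1.69, adjusted p = 3.1e-05). Atp1b1, a beta subunit of the pump (-0.31, adjusted p = 0.0359), and the neuronal chloride exporter KCC2 (Slc12a5, -0.54, adjusted p = 0.00162) fell, as did 5 of 10 neuron markers. Atp1b1 shares 575 exon bases with Nme7 on the opposite strand. The count of falls was 1 without sham replicate 1 and without sham replicate 3, and 1 with the equal-variance test or with limma without a filter.

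Of 20 other genes of glutamate, glutamine and GABA transport and metabolism, 6 rose and 3 fell, with a median of 0.20, whereas 5 fell with the size factors of DESeq2, and 2 rose and 1 fell with the equal-variance test on FPKM. The cystine-glutamate exchanger Slc7a11 rose from 37.2 ± 6.39 to 70.6 ± 6.82 CPM (log2 fold change 0.92, adjusted p = 0.000999) and the glutamine carrier SNAT3 (Slc38a3) from 60.7 ± 4.23 to 114 ± 24.1 CPM (0.91, adjusted p = 0.00173). Glutamate dehydrogenase (Glud1) rose by less (0.31, adjusted p = 0.00971). The vesicular carrier of cortical excitatory neurons, Slc17a7 (-0.48, adjusted p = 0.0578), and the transaminases Got1 (-0.18, adjusted p = 0.101) and Got2 (-0.20, adjusted p = 0.0681) were lower in every injured library but did not pass the test.

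Of 11 other genes of bicarbonate and pH handling, 3 rose and 3 fell, with a median of -0.09, and the equal-variance test on FPKM called 0 higher and 2 lower. Carbonic anhydrase 2 (Car2), of oligodendrocytes and other glia, rose (log2 fold change 0.56, adjusted p = 0.00504), as did the anion exchanger Slc4a2 (0.72, adjusted p = 0.00441). Slc4a2 shares 1141 exon bases with Fastk, a protein-coding gene on the opposite strand. Slc4a10, a bicarbonate carrier of neurons and choroid plexus (-0.43, adjusted p = 0.0297), and Car10 (-0.86, adjusted p = 0.00271) fell, and Car11 was at -0.09. Of 19 genes of glucose, glycogen and lactate, 5 rose and 4 fell (2 with the equal-variance test), with a median of -0.06. The lactate carrier MCT1 (Slc16a1) rose from 30.5 ± 1.26 to 64.2 ± 8.65 CPM (1.08, adjusted p = 1.33e-04) and brain glycogen phosphorylase (Pygb) from 199 ± 15.9 to 302 ± 17.2 CPM (0.60, adjusted p = 0.00101). The 4 glycolytic enzymes with the highest mean FPKM did not pass the test, with log2 fold changes of -0.18 for Aldoa, -0.17 for Pgam1, 0.02 for Pkm and -0.04 for Ldhb, beside the 0.12 of Aldoc. Glycolytic enzymes with a lower mean FPKM were among the 4 genes that fell.

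Of 20 other genes that mark astrocytes, 11 rose and 0 fell, with a median of 0.39, close to the 0.44 of the 10 genes, and the count of rises was 7 without sham replicate 3, 6 with limma without a filter and 4 with the equal-variance test on FPKM. With the size factors of DESeq2, 1 gene of this list was called lower. The same count was given by the test of DESeq2, the filter of 1 count, removal of the length trend and the fit without TBI replicate 3. S100b rose from 115 ± 5.70 to 178 ± 11.0 CPM (log2 fold change 0.63, adjusted p = 4.88e-04) and the orphan receptor Gpr37l1 from 191 ± 15.8 to 308 ± 16.8 CPM (0.69, adjusted p = 5.01e-04), whereas Sparcl1 (0.05) and Ttyh1 (-0.01) did not pass the test. All 12 markers of reactive astrocytes rose, with a median of 3.27 and a range of 0.85 to 6.77. Their summed level was between 222 and 310.0 CPM in sham libraries and between 2874 and 3656 CPM in injured mice, a far wider gap than that of the transport and coupling genes, whose largest log2 fold change was 1.70.

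**Figure D5:**
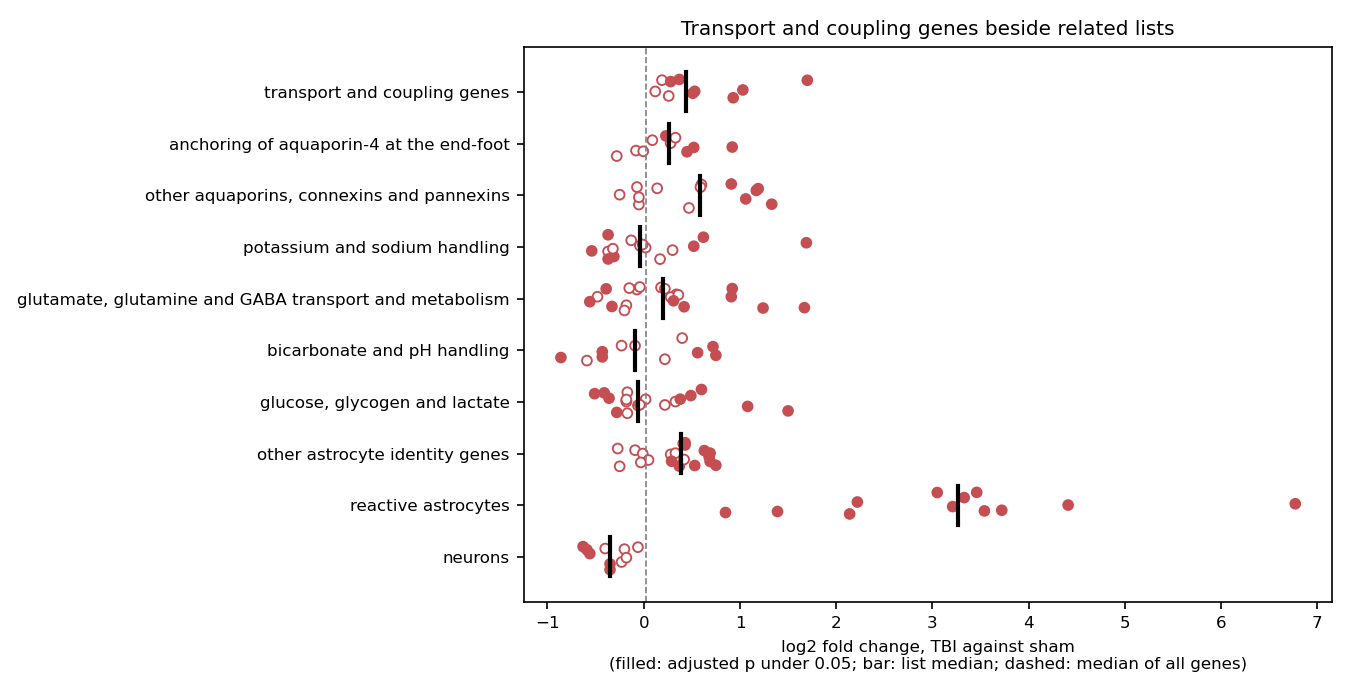
Log2 fold change, TBI against sham, of each tested gene (points, filled where the adjusted p-value was under 0.05) in the transport and coupling genes and in 9 other lists, with the median of each list (bar) and of all genes (dashed line). The 10 genes have a median of 0.44, next to 0.39 for other astrocyte genes, 3.27 for reactive astrocyte markers and -0.35 for neuron markers.

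The second comparison asked whether zileuton changed the injured tissue. None of the 10 genes was called, nor was any of the 17363 genes tested (0%, smallest adjusted p = 0.185). At an unadjusted p under 0.05 there were 1186 genes, 6.83% of those tested, and 1 of the 10. DESeq2 called 26 genes, none of them among the 10. The log2 fold changes of the 10 genes ran from -0.17 to 0.29, with a median of 0.03 against 0.00 over all genes. The libraries did not overlap in 2 of the 10 genes, both with zileuton higher, where 6.51% of all genes did so.

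Slc1a2 came nearest to a difference. It had 2590, 3258 and 2443 CPM in the injured controls and 3315, 3264 and 3562 CPM with zileuton, so that the lowest zileuton library was only just above the highest control, replicate B. The log2 fold change was 0.29 (SE 0.126, unadjusted p = 0.0498, adjusted p = 0.713), with a 95% interval of the fold change from 1.00 to 1.50. Slc4a4 had 207, 225 and 203 CPM in the controls and 227, 238 and 241 CPM with zileuton, again with a narrow gap and without overlap (log2 fold change 0.15, SE 0.0744, adjusted p = 0.713). With the trend of log2 fold change with length removed, Slc1a2 was at 0.11 and Slc4a4 at 0.03, and these are the genes with the longest lengths of the 10 (13133 and 11333 bases, as the 2018 FPKM imply). The summed markers of oligodendrocytes moved alongside, at 4375, 7824 and 9686 CPM in the controls and between 8843 and 9144 CPM with zileuton, and their part in these values was not tested.

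The genes with the largest rises after TBI showed no difference between the 2022 groups that the spread allowed to be detected. Aqp4 had 284, 317 and 414 CPM in the controls and 411, 307 and 260.0 CPM with zileuton, and the libraries overlapped over most of their range. Its fold change was 0.963 with a 95% interval from 0.712 to 1.30. Gja1 had 242, 252 and 319.6 CPM in the controls and 265, 269.5 and 248 CPM with zileuton (fold change 0.961, 95% interval 0.803 to 1.15). Kcnj10 had 337, 355 and 407 CPM in the controls and 427, 351 and 369 CPM with zileuton (fold change 1.04, 95% interval 0.880 to 1.24).

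Gjb6 had the lowest value, with 45.5, 53.5 and 56.6 CPM in the controls and 45.6, 46.6 and 46.5 CPM with zileuton, a fold change of 0.891 (95% interval 0.770 to 1.03, adjusted p = 0.721). Aldh1l1 had 109, 126 and 133 CPM in the controls and 134, 101 and 102 CPM with zileuton (fold change 0.917, 95% interval 0.749 to 1.12). The other 3 genes differed by less, with fold changes of 1.01 for Slc1a3 (95% interval 0.884 to 1.16), 1.02 for Glul (0.882 to 1.18) and 1.057 for Aldoc (0.910 to 1.23). The log2 ratios of Slc1a2 to Slc1a3 (difference 0.28, p = 0.4), of Gjb6 to Gja1 (-0.11, p = 0.2) and of Kcnj10 to Aqp4 (0.12, p = 0.5) overlapped between the groups in two-sided exact permutation tests, with adjusted values of 0.48, 0.3 and 0.5. No gene of the 7 related lists was called in either direction.

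Per length, TPM (levels scaled by length to a total of 1000000) in the 2022 controls had Glul (1436 ± 81.0, SD, n = 3), Aldoc (932 ± 39.0), Slc1a2 (425 ± 81.3) and Slc1a3 (273 ± 22.8) in the 4 highest places. Gja1 (161 ± 19.2) came next, then Aqp4 (127 ± 19.0) and Kcnj10 (122 ± 7.20), which overlapped. Gjb6 (52.5 ± 1.46) and Slc4a4 (54.7 ± 7.37) were the lowest and overlapped each other. The zileuton libraries gave the same order of means, from Glul at 1526 ± 39.4 TPM to Gjb6 at 52.0 ± 14.9 TPM. FPKM and TPM were normalized separately and are not comparable between the batches.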

How the data were processed

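RNA of mouse brain was sequenced in 4 groups of 3 libraries, and groups were taken from the labels. For 2018 the authors deposited raw counts per gene and FPKM, and for 2022 they deposited estimated counts, 13.7% of them not whole, and TPM that add up to 1000000. The submitters' processing notes list HISAT2, featureCounts of Subread, DESeq2 and build GRCm39 without saying which served which batch. The use of strand in counting is not given in the sources used here. The 2022 table includes 223 rows with assembly names. Columns of the 2022 libraries carry the numbers 2, 3 and 6, which no label ties to a single library, and they are called replicates A, B and C. No columns belong to other samples.

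Counts (estimated counts were rounded, which the plan had allowed for) were analysed within each batch in R 4.3.3 with edgeR 4.0.16 (TMM, filterByExpr, glmQLFit and glmQLFTest, group only, two-sided) and Benjamini-Hochberg adjustment over all genes tested. CPM were scaled by TMM. The standard error (SE) is the log2 fold change divided by the square root of F. Ratios were tested by two-sided exact permutation with scipy 1.17.1. A table of gene names gave the symbols (34808 and 52081 rows matched) and overlapping genes from GENCODE M21 on GRCm38, so no gene coordinates are given.

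The genes, lists and rule were chosen with earlier results of these data known. Genes named were the 10, up to 4 of the highest mean FPKM and up to 2 of the smallest adjusted p in each related list, and Gfap and Cd68. Some genes that this rule would name are not reported here. Of marker lists counts, medians, ranges and sums are given, with defining markers listed at 0 and Car8 named for its share of a sum. The alternatives tried were scaling by the size factors of DESeq2 1.42.0 or by totals only, the test of DESeq2 itself, a filter of 1 count in any library or of 10 in each, limma 3.58.1 on log2(value + 1) and log2(value + 0.1) of FPKM or TPM with a mean of at least 0.5 and on log2(value + 1) without a filter, a two-sided equal-variance two-sample test on FPKM or TPM, removal of the length trend, a replicate block and leaving out each library. Leaving out 2 libraries together was added after the data were seen. The count fits were also run on simulated data with known changes. Those changes were larger than the rises of most of the 10 genes, and the tissue differences among libraries were not simulated. That run therefore cannot say how well smaller changes are detected here. Python 3.11.15 with matplotlib 3.10.9 drew the figures.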

Additional observations from a re-analysis of the deposited data

How the results depend on the processing

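Aqp4, Gja1, Kcnj10 and Slc1a3 were called higher after TBI in all 18 alternatives, 17 of them planned, and no alternative turned the direction of any of the 10 genes in that comparison. The number of the 10 called was 5 to 8 where no single library was left out and 4 to 7 where each was left out in turn, with 4 without sham replicate 1 and without sham replicate 3, and the cause of the losses, beyond the smaller number of libraries, was not tested. Over all genes 5479 were called, against 2625 with the equal-variance test and, with fewer libraries, 3371 without sham replicate 1 and TBI replicate 2. Of the calls 3286 of 5479 were higher, and 2656 of 3713 by limma without a filter. With a replicate block 5 of the 10 genes were called, Glul and Slc4a4 being lost, and 4337 of all genes. Same-numbered libraries did not deviate together (correlations of -0.0224, -0.131 and -0.0892 in 2018 and of -0.348, 0.0495 and -0.345 in 2022), so the numbers were not taken as a pairing. In 2022 the block called 0 of the 10 genes and 0 of all, with 729 genes at an unadjusted p under 0.05 against 1186, and that number was 680 to 1909 across the leave-outs and 794 without the length trend. Zileuton changes near 0 turned sign without passing any test. On TPM, Aqp4 was at 0.07 in each limma fit and 0.09 in the equal-variance test, Gja1 at 0.01 and Aldh1l1 at 0.02 in all 4. Without the length trend, which in 2022 had a rank correlation of 0.378 between log2 fold change and length over genes (-0.115 in 2018), Kcnj10 and Slc1a3 were each at -0.03. Leaving out 1 library gave ranges of -0.25 to 0.11 for Aqp4, -0.13 to 0.07 for Gja1, -0.03 to 0.14 for Kcnj10, -0.04 to 0.05 for Slc1a3 and -0.04 to 0.06 for Glul and -0.02 to 0.12 for Aldoc, the lowest of the last pair being without TBI replicate A and zileuton replicate C together, and -0.0036 to 0.22 for the log2 ratio of Kcnj10 to Aqp4, lowest without zileuton replicate C.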

Other observations

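The TPM of Gjb6 in zileuton replicate B was 69.2, against 43.6 and 43.2 in zileuton replicates A and C and 50.8 to 53.4 in the 3 injured controls, whereas its CPM in the zileuton libraries lay between 45.6 and 46.6. The TPM and the estimated counts of that library therefore disagree for this gene, and the cause was not tested.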
